A study of Homo sapiens with 16 samples.

Results

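The E2F and retinoblastoma family was examined for 3 histone marks in Toledo cells, an established line of diffuse large B-cell lymphoma. The 10 genes, of 19974 protein-coding genes on chromosomes 1 to 22 and X, are the activators E2F1, E2F2 and E2F3, the repressors E2F4, E2F5, E2F6, E2F7 and E2F8, and the pocket proteins RB1 and RBL1. The family was chosen by the presence and covered length of peaks of the 3 marks over each gene, set between CARM1i and DMSO, with earlier results of these data known. Each gene was given a window of its body plus 10 kb on either side (hg38, RefSeq GRCh38.p14), and all 10 were found. One group of cells received 5 uM of TP-064 over 6 days, a compound that blocks CARM1, an enzyme that methylates arginines (CARM1i), and the other received the solvent DMSO; both groups are the same line with no other genotype named. Chromatin immunoprecipitation and sequencing (ChIP-seq) gave 2 libraries per treatment for each of H3K27ac, H3K4me1 and H3K4me3, and 1 list of peak positions per library. The 4 input libraries were not used here.

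Read depth is unknown, since the lists hold no reads, scores or heights. The values below are therefore the base pairs covered by peaks, and a gene without a peak in a list may carry a mark below the caller's threshold. In such bulk samples a mark on fewer cells and a weaker mark in each cell cannot be told apart. For H3K27ac, 4771 and 4595 peaks were listed with CARM1i, against 7885 and 4016 with DMSO. For H3K4me1 the CARM1i libraries had 4094 and 4242 peaks and the DMSO libraries 25058 and 9673. For H3K4me3 the CARM1i libraries had 10317 and 10048 and the DMSO libraries 12476 and 11481. DMSO replicate 1 thus had the longest list of each mark. Sequencing lane followed treatment, with lane 4 for every CARM1i library and lane 3 for every DMSO library, and their effects cannot be told apart. Nothing in the labels ties the replicates to separate cultures, so their spread may be technical. As a check of the line, 7 of 8 B-cell genes (MS4A1, CD79A, CD79B, PAX5, EBF1 and BLK among them) had H3K4me3 within 2 kb of a gene end in all 4 libraries, and CD22 had it in both DMSO libraries only. None of 6 T-cell, 5 myeloid or 5 epithelial genes had it in any H3K4me3 list. Because the comparison of CARM1i with DMSO was part of the choice of these genes, it is described without tests.

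E2F proteins bind the promoters of genes for DNA replication and cell division. The activators switch these genes on once cyclin-dependent kinases release them from RB1, the retinoblastoma protein. E2F4 and E2F5 hold the genes silent in resting cells together with RBL1 (p107) and RBL2 (p130), E2F6 represses with Polycomb proteins, and the atypical E2F7 and E2F8 repress later in S phase without a DP partner. Several E2F genes carry E2F sites in their own promoters and are themselves switched on at the start of S phase. Of the marks, H3K4me3 is typical of promoters, H3K4me1 of enhancers, and H3K27ac of either where it is active.

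The start regions show which of these genes carry the letters of an E2F site. RefSeq windows (GRCh38.p14) of 250 bases before to 50 after a start were at hand for 8 of the 10 genes; those of E2F5 and E2F8 were not used here, and the RB1 window belongs to a start inside the gene, away from any H3K4me3 peak. Forms of the E2F site were searched on both strands: the letters TTCCCGC, then the form TTCGCGC, also the form TTGCCGC, and lastly the form TTGGCGC. No match overlapped another. The last 150 bases before the start are printed 5′ to 3′ on the gene's strand, with E2F matches in capitals. The first 4 genes held H3K27ac at this start in both DMSO libraries, and E2F6 is shown as a promoter with H3K4me3 and no H3K27ac peak.
E2F1 (chr20:33686386-33686535, minus strand): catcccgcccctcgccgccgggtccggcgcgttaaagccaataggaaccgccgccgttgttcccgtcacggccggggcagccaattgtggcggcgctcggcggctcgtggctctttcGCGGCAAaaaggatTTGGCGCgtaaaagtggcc
E2F2 (chr1:23531234-23531383, minus strand): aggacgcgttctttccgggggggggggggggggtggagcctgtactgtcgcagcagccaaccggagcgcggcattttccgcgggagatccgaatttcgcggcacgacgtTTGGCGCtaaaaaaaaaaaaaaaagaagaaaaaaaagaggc
E2F3, upstream start (chr6:20401729-20401878, plus strand): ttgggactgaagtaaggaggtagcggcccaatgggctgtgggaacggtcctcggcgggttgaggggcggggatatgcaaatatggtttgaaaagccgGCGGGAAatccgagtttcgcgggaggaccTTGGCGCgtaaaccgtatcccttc
RBL1 (chr20:37095998-37096147, minus strand): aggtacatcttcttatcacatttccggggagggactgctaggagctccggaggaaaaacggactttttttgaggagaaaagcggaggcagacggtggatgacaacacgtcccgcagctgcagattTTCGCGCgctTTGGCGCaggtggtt
E2F6 (chr2:11466162-11466311, minus strand): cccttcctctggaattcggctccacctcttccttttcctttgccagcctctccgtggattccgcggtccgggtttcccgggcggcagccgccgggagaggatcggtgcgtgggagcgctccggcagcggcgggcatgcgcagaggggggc

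With positions counted from the start and negative before it, TTGGCGC stood at -19 to -13 in E2F1, -41 to -35 in E2F2, -24 to -18 in the upstream window of E2F3 and -15 to -9 in RBL1. On the other strand E2F1 also held TTGCCGC at -33 to -27, and E2F3 held TTCCCGC at -53 to -47. RBL1 held TTCGCGC at -25 to -19. E2F7 had TTGGCGC at -133 to -127 and TTGCCGC at -176 to -170, both on the other strand. E2F6 had TTCCCGC on the other strand at 14 to 20, after the start and outside the stretch printed. E2F4 and the second E2F3 window, whose start lies 1735 bp downstream, held none of the 4 forms. Of all 35116 windows, 13.0% held at least 1 form and 3.04% held TTGGCGC. The letters of the NF-Y box, CCAAT, occurred 3 times in E2F1, 4 times in the upstream E2F3 window and 4 times in E2F7 (34.6% of all windows hold it). TTTGAA, the core of the CHR element bound by the MuvB complex, occurred once among these windows, in E2F3 (15.2% of all windows). Such matches describe letters and do not show binding.

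H3K27ac divided the family. E2F2, E2F3 and E2F8 had H3K27ac peaks in both DMSO libraries and in neither CARM1i library, a state called lost here. E2F1, E2F5 and RB1 had the mark in all 4 libraries, RBL1 had it at its start with DMSO only, and E2F4 and E2F6 had no H3K27ac peak in any list. H3K27ac was present in both DMSO libraries at 7 of the 10 genes, against 17.4% of all protein-coding genes, and in all 4 libraries at 3 of the 10, against 9.44%. Of those 7 genes 3 were lost, beside 24.1% of the 3469 genes in that position. Of the 2 genes with H3K27ac in neither DMSO library none was gained (background 0.981%). Of the 8 with a peak in any library 4 were lower without overlap between the groups (background 25.4%). The count of lost genes was 3 or 4 whichever single library was left out. DMSO replicate 2, whose H3K27ac list of 4016 peaks was shorter than both CARM1i lists, held the peaks of E2F2, E2F3 and E2F8.

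**Figure D1:**
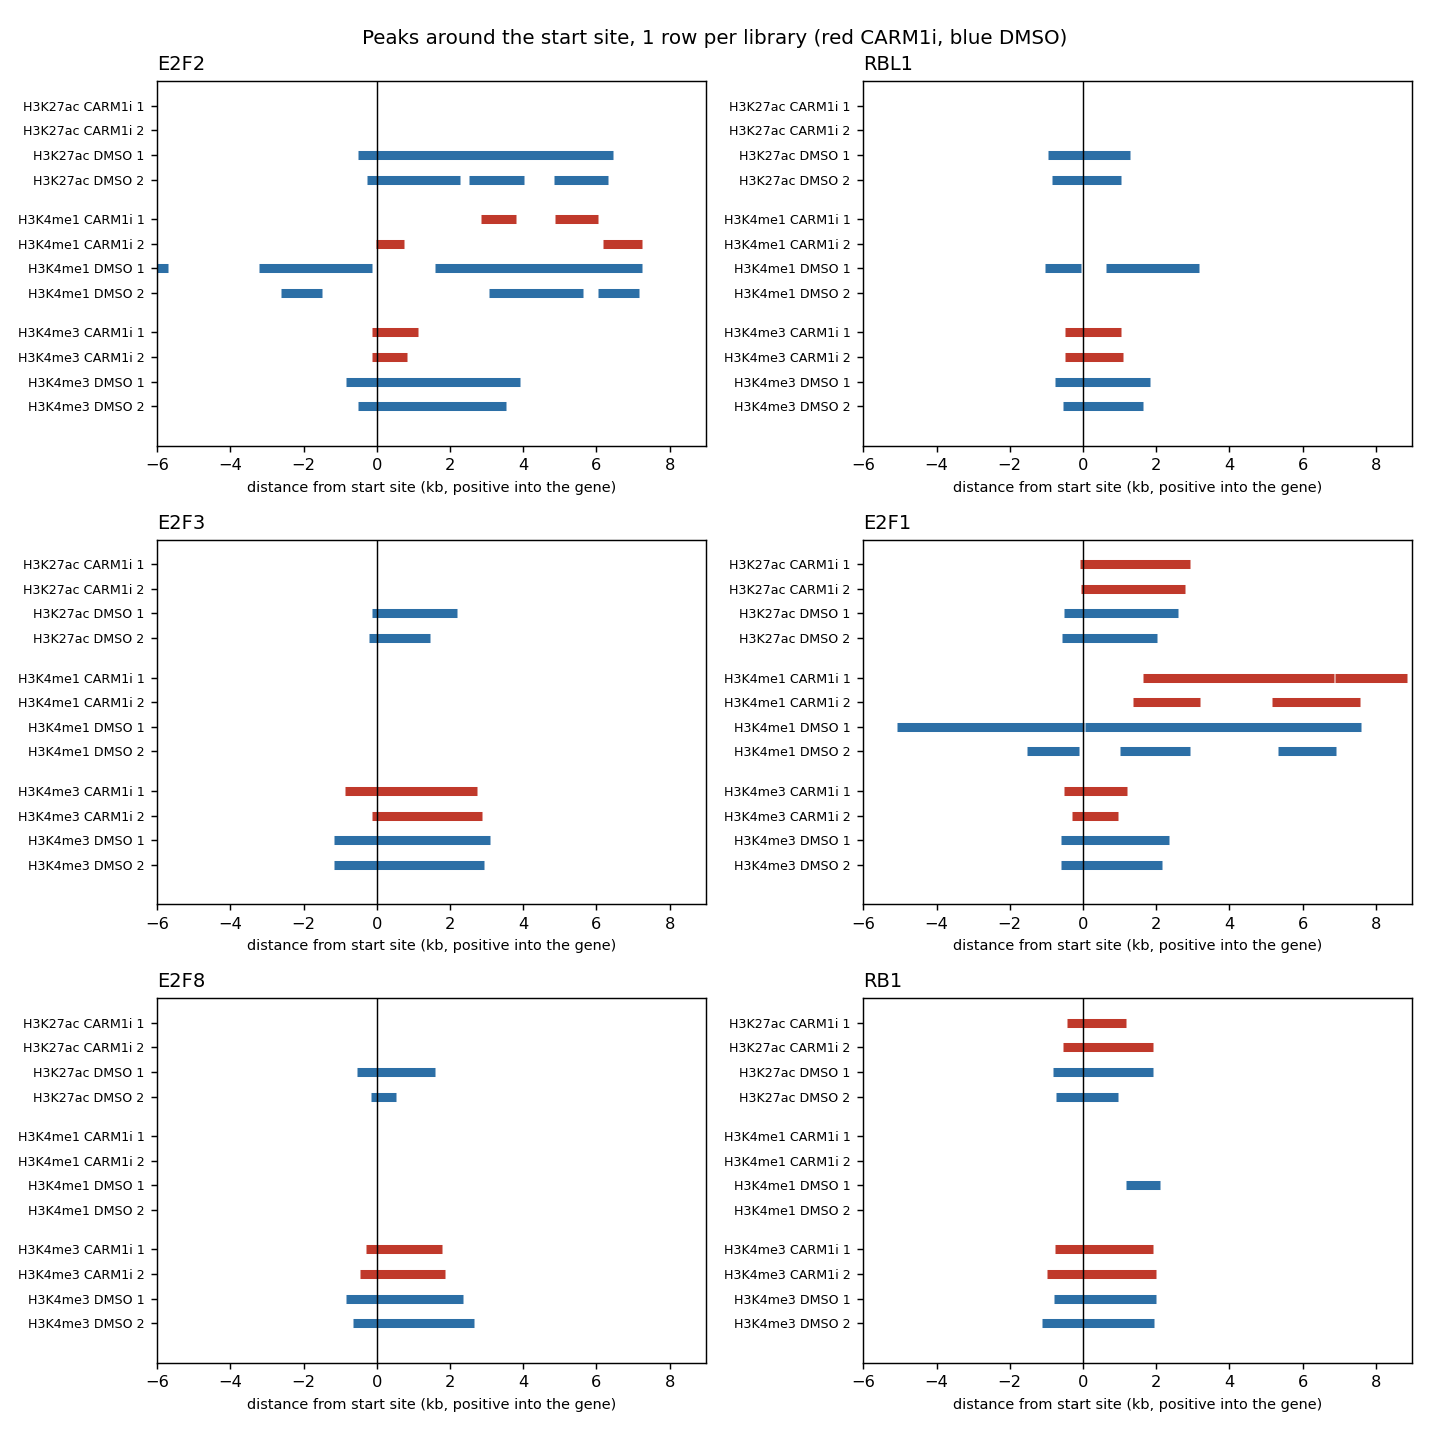
Peaks of 3 marks around the start sites of E2F2, E2F3, E2F8, RBL1, E2F1 and RB1, in kb from the start with positive values into the gene, 1 row per library (red CARM1i, blue DMSO). H3K27ac bars are present in the DMSO rows only at E2F2, E2F3, E2F8 and RBL1 and in all 4 rows at E2F1 and RB1; peaks farther out than the axis are not drawn.

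Among the activators, E2F2 (chromosome 1, 23505212 to 23531233, minus strand) had the most extensive H3K27ac with DMSO. Neither CARM1i library had a peak in its window, against 6968 and 5544 bp covered in the DMSO libraries. In DMSO replicate 1 this was a single peak from 524 bp outside the start to 6443 bp into the gene, wider than or as wide as 98.3% of the peaks in its list. DMSO replicate 2 had 3 peaks over the same stretch, of 2565, 1507 and 1472 bp. No other protein-coding gene lies in the E2F2 window, so these peaks touch no neighbour.

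E2F3 (chromosome 6, 20401879 to 20493714, plus strand), the third activator, had no H3K27ac peak with CARM1i, against 2324 and 1644 bp with DMSO. The peak reached 2181 bp into the gene in DMSO replicate 1, past both starts, and 1442 bp in DMSO replicate 2, past the upstream start only. The end of LOC124901482, an uncharacterised gene, lies within 2 kb of these peaks, and when such peaks were left out E2F3 had no H3K27ac peak in any library.

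E2F1 (chromosome 20, 33675477 to 33686385, minus strand), which drives entry into S phase, kept its H3K27ac. Its start carried a peak of 2991 and 2850 bp with CARM1i, against 3117 and 2586 bp with DMSO. The groups overlap, and the means were 2921 ± 99.7 bp with CARM1i and 2852 ± 375 bp with DMSO (SD, n = 2 each). The edges of the peak did not overlap between the groups: it reached 80 and 57 bp outside the start with CARM1i against 512 and 566 bp with DMSO, and 2910 and 2792 bp into the gene with CARM1i against 2604 and 2019 bp with DMSO. The H3K27ac peak of E2F1 therefore lay farther into the gene in both CARM1i libraries, at nearly equal width.

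Of the repressors, E2F8 (chromosome 11, 19224063 to 19241655) had no H3K27ac peak with CARM1i, against 2141 and 687 bp with DMSO. The peaks lay at the upper end of the gene, taken as its start because H3K4me3 lay there in all 4 libraries; its strand is not given in the tables used. The 687 bp peak of DMSO replicate 2 was among the narrowest in its list (0.324% were as narrow or narrower), and the loss ended when peaks under 1000 bp were left out. E2F7 (chromosome 12, 77021251 to 77065569), the other atypical member, had no peak with CARM1i and 1758 and 0 bp with DMSO, so its start was marked in DMSO replicate 1 alone.

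E2F5 (chromosome 8, 85177154 to 85214518) covered 2365 and 7007 bp with CARM1i, against 2802 and 2506 bp with DMSO. The high value of CARM1i replicate 2 came from 3 peaks of 1692, 1379 and 1360 bp, 9521 to 14726 bp into the gene; DMSO replicate 2 had 1 peak of 1006 bp in the same stretch, and the other libraries had none there. At the start itself the E2F5 peak measured 2365 and 2576 bp with CARM1i against 2802 and 1500 bp with DMSO, and the groups overlap. E2F4 (chromosome 16, 67192155 to 67198918), the most abundant E2F of resting cells, and E2F6 (chromosome 2, 11444375 to 11466161) had neither a peak with CARM1i nor one with DMSO.

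The pocket proteins differed from each other. RB1 (chromosome 13, 48303751 to 48481890, plus strand) had a start peak of 1614 and 2457 bp with CARM1i, against 2725 and 1705 bp with DMSO, and the groups overlap. RBL1 (chromosome 20, 36996349 to 37095997, minus strand) had no peak at its start with CARM1i, against 2245 and 1863 bp with DMSO. A peak of 1531 bp in CARM1i replicate 2, 86716 to 88246 bp into RBL1 and far from the start, kept the gene from being counted as lost over its whole window. Within 2 kb of the start sites, a setting chosen after seeing the data, the lost genes were E2F2, E2F3, E2F8 and RBL1. Among the 8 genes whose strand is given, that is 3 of 5 with H3K27ac at the 5′ end in both DMSO libraries, against 29.2% of 1802 genes. RBL2, the remaining pocket protein, is outside the list and had no H3K27ac peak in any library.

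**Figure D2:**
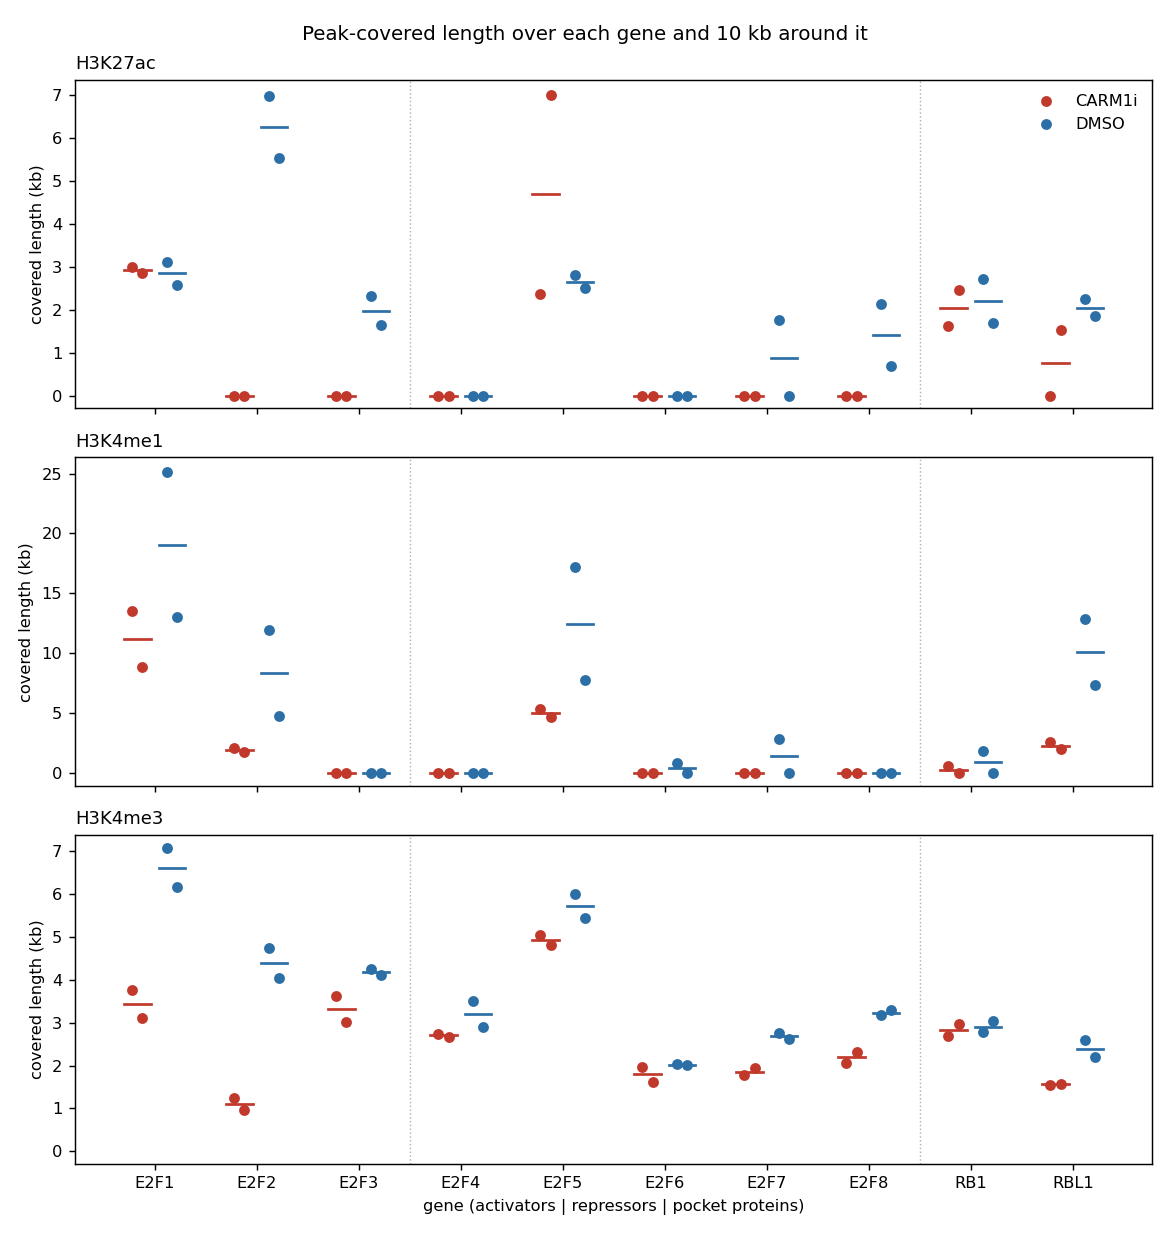
Base pairs covered by peaks (kb) over each gene and 10 kb around it, for H3K27ac, H3K4me1 and H3K4me3. Points are libraries (red CARM1i left, blue DMSO right) and short lines the means of 2 libraries. For H3K4me3 the groups overlap in RB1 alone. For H3K27ac both CARM1i points are at 0 at E2F2, E2F3 and E2F8, and also at E2F4, E2F6 and E2F7. At RBL1 the point of CARM1i replicate 1 is at 0.

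H3K4me3 was kept by the whole family and was narrower in nearly all of it. All 10 genes had H3K4me3 in all 4 libraries, where 61.6% of all genes had it in both DMSO libraries and 56.6% in all 4. None was lost, beside 4.79% of genes with the mark in both DMSO libraries, and none could be gained (0.11% of genes with it in neither), while covered length was lower in both CARM1i libraries than in both DMSO libraries at 9 of 10. Narrower H3K4me3 was general: the same held for 82.8% of 12794 protein-coding genes with a peak in any library, so the count is close to the background. The median log2 ratio of covered length, CARM1i over DMSO, was -0.44 over the 10 genes and -0.29 over the 11314 genes with the mark in all 4 libraries. The size of the difference varied between members.

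E2F2 had the largest difference of the family. Its H3K4me3 covered 1244 and 961 bp with CARM1i, against 4756 and 4046 bp with DMSO, a log2 ratio of -2.00. The groups do not overlap, and 0.301% of the 11314 genes had a ratio as low or lower. The peak ran 1120 and 824 bp into the gene with CARM1i, against 3910 and 3527 bp with DMSO. The 2 CARM1i peaks thus lay close around the start, while the stretch inside the gene that had held H3K4me3 with DMSO also lay under its H3K27ac.

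E2F1 covered 3768 and 3109 bp of H3K4me3 with CARM1i, against 7076 and 6169 bp with DMSO, a log2 ratio of -0.95 (5.67% of genes as low or lower). Part of this lay beyond the 3′ end: the end of ACTL10 had no peak with CARM1i, against 2059 and 1973 bp with DMSO, and a peak at NECAB3 was present in all 4 libraries. At its own start E2F1 had 1715 and 1257 bp with CARM1i, against 2969 and 2748 bp with DMSO, and the peak reached 1209 and 947 bp into the gene with CARM1i against 2361 and 2146 bp with DMSO. E2F1 thus held H3K27ac farther into the gene, and H3K4me3 less far, in both CARM1i libraries. E2F3 was nearer to the usual size, with 3621 and 3007 bp with CARM1i against 4248 and 4106 bp with DMSO (log2 ratio -0.33).

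The repressors held a pair with larger differences and a trio with small ones. E2F8 covered 2067 and 2318 bp with CARM1i, against 3174 and 3290 bp with DMSO (log2 ratio -0.56), and E2F7 covered 1769 and 1938 bp with CARM1i against 2766 and 2616 bp with DMSO (log2 ratio -0.54). The atypical repressors were thus both below the median of all genes. E2F4 covered 2734 and 2669 bp with CARM1i, against 3507 and 2900 bp with DMSO, and part of this is a second peak at the ends of EXOC3L1 and MATCAP1. E2F5 covered 5042 and 4818 bp with CARM1i, against 6010 and 5448 bp with DMSO, including a peak at RBIS. E2F6 covered 1970 and 1626 bp with CARM1i, against 2031 and 2001 bp with DMSO. Their log2 ratios, -0.25, -0.22 and -0.17, were all above the median of all genes, and in E2F6 the groups were close together.

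RBL1 covered 1546 and 1572 bp of H3K4me3 with CARM1i, against 2595 and 2193 bp with DMSO (log2 ratio -0.62). RB1 covered 2678 and 2980 bp with CARM1i, against 2780 and 3042 bp with DMSO (log2 ratio -0.04). RB1 was the member whose groups overlapped, and 96.0% of genes had a ratio as low as its own or lower. RBL2 covered 1922 and 1439 bp with CARM1i, against 1945 and 1809 bp with DMSO, and its groups overlap, since CARM1i replicate 1 lay between the DMSO values.

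**Figure D3:**
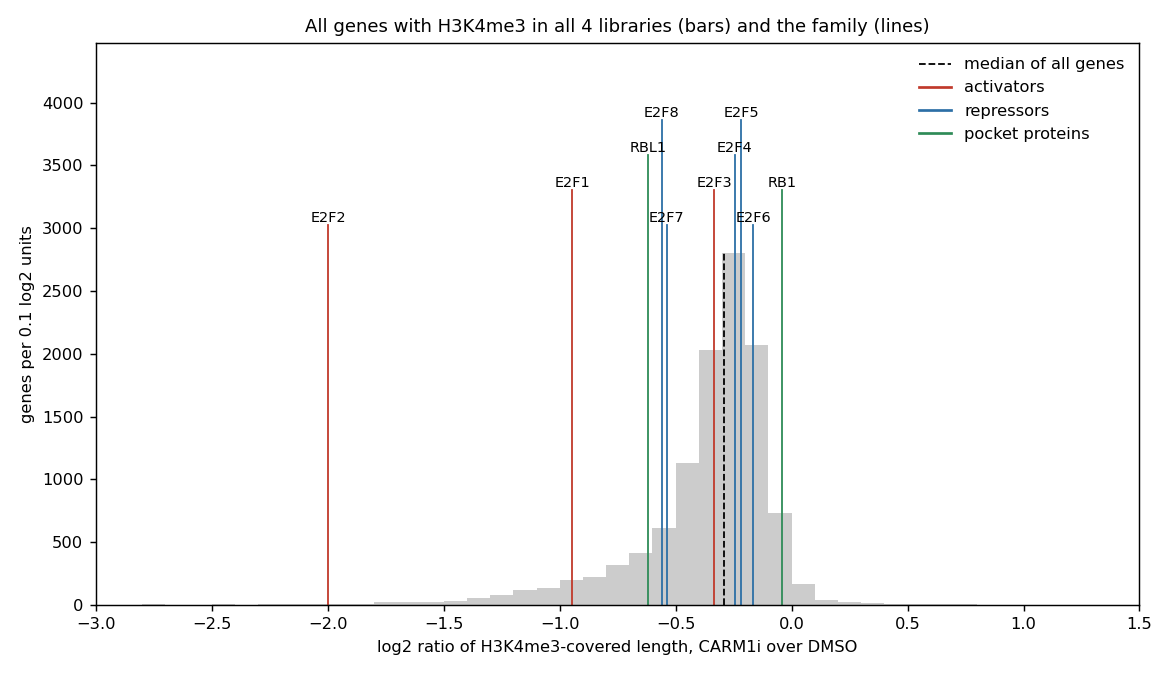
Log2 ratio of H3K4me3-covered length, CARM1i over DMSO, for the 11314 genes with a peak in all 4 libraries (grey bars, genes per bin; dashed line, their median of -0.29). Lines mark the activators (red), repressors (blue) and pocket proteins (green): E2F2 at -2.00 and E2F1 at -0.95 are farthest left, and RB1 at -0.04 is farthest right.

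The side on which the H3K4me3 peak was shorter also varied. Reach into the gene was lower without overlap between the groups at 6 of 10 genes (E2F1, E2F2, E2F3, E2F7, E2F8 and RBL1), and reach outside the gene at 9 of 10. The backgrounds were 69.9% and 70.6% of 7945 genes with a known strand and the mark at the 5′ end in all 4 libraries. Their median differences, CARM1i minus DMSO, were -189 bp into the gene and -181 bp outside it. Into the gene the mean difference was -2747 bp at E2F2, -1176 bp at E2F1, -676 bp at E2F8, -673 bp at E2F7, -664 bp at RBL1 and -201 bp at E2F3. It was -89 bp at E2F5, -72 bp at E2F4, -23 bp at E2F6 and -2.5 bp at RB1. Among the members with a known strand, at most 4.08% of the 7945 genes had a difference as low as that of E2F2, E2F1, E2F7 or RBL1. Outside the gene E2F3 had the largest difference of the family (-662 bp), with reaches of 870 and 132 bp with CARM1i against 1161 and 1165 bp with DMSO.

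**Figure D4:**
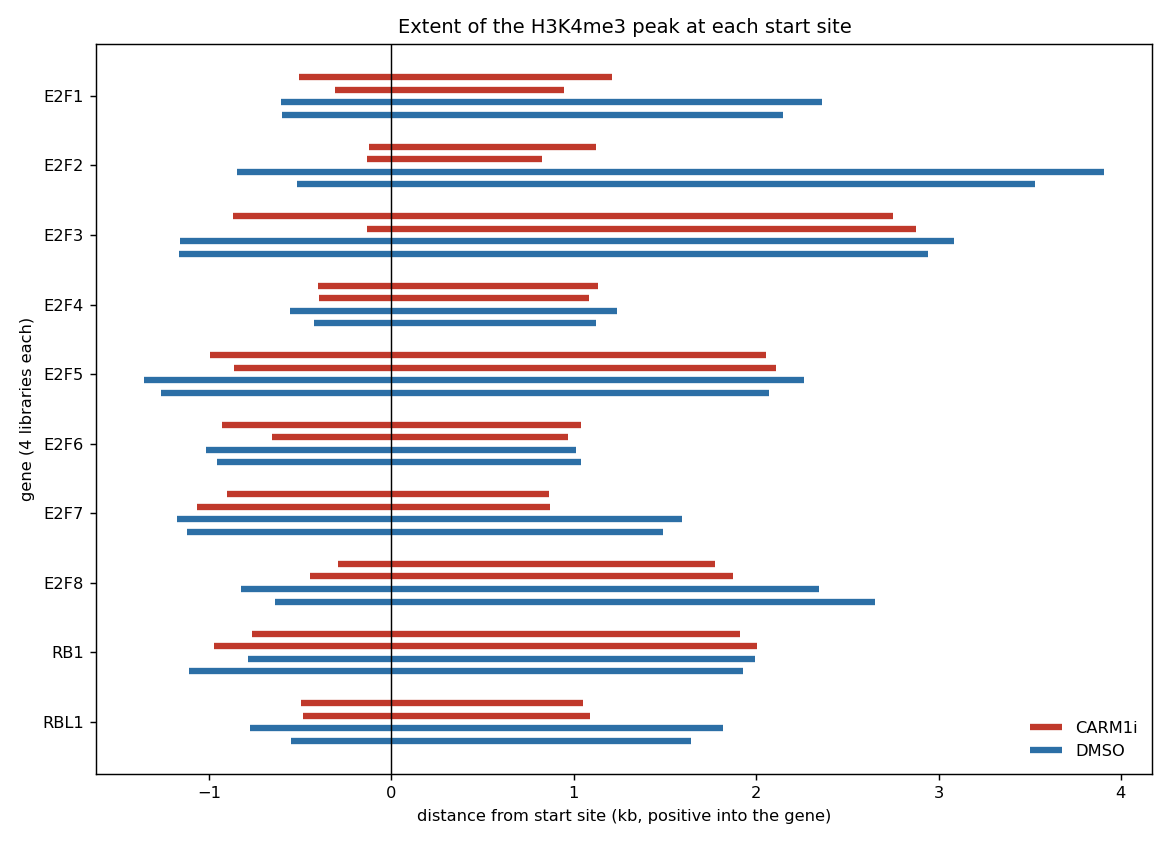
Extent of the H3K4me3 peak around each start site in kb, positive into the gene, with 4 bars per gene (red CARM1i above, blue DMSO below). The CARM1i bars of E2F2 end 1120 and 824 bp into the gene and its DMSO bars 3910 and 3527 bp, while the bars of RB1, E2F4, E2F5 and E2F6 nearly coincide on that side.

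H3K4me1 was found over 7 of the 10 genes in at least 1 library and over E2F1, E2F2, E2F5 and RBL1 in all 4 (24.9% of all genes had it in both DMSO libraries and 8.84% in all 4). Of the 4 members with H3K4me1 in both DMSO libraries none was lost over its window, beside 39.8% of the 4973 genes in that position. Of the 3 members with it in neither DMSO library none was gained (background 0.0633%). Covered length was lower without overlap at 3 of the 7 genes, against a background of 42.4% of genes with a peak in any library. Over all members and marks, no covered length was higher without overlap in the CARM1i libraries (backgrounds 5.44% for H3K27ac, 0.133% for H3K4me1 and 0.563% for H3K4me3). The H3K4me1 lists were far shorter with CARM1i, and that difference moves with each value that follows. With all lists reduced to their widest peaks at equal length, E2F2, E2F5 and RBL1 were lower without overlap. CARM1i replicate 1, the shortest list, then kept all of its 4094 peaks, while DMSO replicate 1 kept only the widest of its 25058. The DMSO peaks that remain are thus wider by selection, so this setting does not remove the difference between the lists. With lists of equal length the mean difference, CARM1i minus DMSO, was -2509 bp at E2F2, -1456 bp at E2F5, -5138 bp at RBL1 and -3716 bp at E2F1. Over the full lists it was -6416 bp at E2F2, -7441 bp at E2F5, -7800 bp at RBL1 and -7899 bp at E2F1.

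E2F2 covered 2106 and 1828 bp of H3K4me1 with CARM1i, against 11966 and 4799 bp with DMSO. With CARM1i the mark was made up of small peaks inside the gene or at its start, and none lay wholly outside it. They measured 1163 and 943 bp in replicate 1 and 1077 and 751 bp in replicate 2. No peak of either CARM1i replicate overlapped a peak of the other. With DMSO the mark lay on both sides of the start, with outermost edges at -9506 bp from it in replicate 1 and -2621 bp in replicate 2. RBL1 covered 2616 and 2022 bp with CARM1i, against 12870 and 7367 bp with DMSO. All of the CARM1i length was a peak far inside RBL1, which measured 5922 and 5575 bp with DMSO. Another stretch, 49869 to 53284 bp into the gene in DMSO replicate 1, had no peak with CARM1i and one in each DMSO library. The deep RBL1 peak is also where CARM1i replicate 2 had its H3K27ac.

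E2F5 covered 5384 and 4714 bp with CARM1i, against 17213 and 7766 bp with DMSO. Its internal H3K4me1, 9568 to 16045 bp into the gene in DMSO replicate 1, was present in all 4 libraries and overlaps the internal H3K27ac peaks of that gene. E2F1 covered 13507 and 8834 bp with CARM1i, against 25086 and 13053 bp with DMSO, and its groups overlap. Part of this length lay near the ends of ACTL10 and NECAB3. With peaks near another gene's end left out, the mean difference at E2F1 was -4185 bp, against -7899 bp with them. No H3K4me1 lay next to the outer side of the E2F1 start with CARM1i, where DMSO replicates 1 and 2 had peaks of 5125 and 1434 bp. The rest were small: 844 bp at E2F6 and 2837 bp at E2F7 in DMSO replicate 1, while RB1 had 625 bp in CARM1i replicate 1 and 1850 bp in DMSO replicate 1. At RB1 the 625 bp were the part inside the window of a 1231 bp peak beyond the 3′ end. Of the 1850 bp, 930 bp lay near the RB1 start, and the rest was the edge of a 2730 bp peak in that flank. E2F3, E2F4 and E2F8 had no H3K4me1 peak in any list.

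Activators and repressors were then set side by side as sums of covered length per library. Over E2F1, E2F2 and E2F3, H3K27ac covered 2991 and 2850 bp with CARM1i, against 12409 and 9774 bp with DMSO, a log2 ratio of -1.93. All of the CARM1i length was the E2F1 peak. Over the 5 repressors it covered 2365 and 7007 bp with CARM1i, against 6701 and 3193 bp with DMSO, a log2 ratio of -0.08, and the groups overlap. All of the repressor length with CARM1i came from E2F5, whose internal peaks in CARM1i replicate 2 set the sum: without that library the log2 ratio was -1.06. It was 0.50 without CARM1i replicate 1, 0.55 without DMSO replicate 1 and -0.52 without DMSO replicate 2, so the repressor sum has no stable direction. Over the gene body alone the repressor ratio was 0.08. Within 2 kb of the start sites, which leaves out the internal E2F5 peaks, it was -0.85, against -1.72 for activators. The activator ratio lay between -2.09 and -1.74 whichever library was left out, and the whole H3K27ac lists had a log2 ratio of -0.33. Most of the activator difference lay at E2F2. The mean H3K27ac difference, CARM1i minus DMSO, was -6256 bp at E2F2, -1984 bp at E2F3 and 69 bp at E2F1. For H3K4me3 the activator sums were 8633 and 7077 bp with CARM1i, against 16080 and 14321 bp with DMSO (log2 ratio -0.95), and the repressor sums 13582 and 13369 bp with CARM1i against 17488 and 16255 bp with DMSO (log2 ratio -0.32). The whole H3K4me3 lists had a log2 ratio of covered length of -0.43. The single activators were unlike each other, with H3K4me3 log2 ratios of -2.00 at E2F2, -0.95 at E2F1 and -0.33 at E2F3. For H3K4me1 the ratio was -1.06 for activators and -1.50 for repressors, both above the -2.24 of the whole lists. The whole lists also hold peaks outside gene windows, so the measures are unlike. Among genes with H3K4me1 in all 4 libraries, the median log2 ratio was -1.70 over 4 members and -1.44 over 1766 genes. Without DMSO replicate 1 the ratio was -0.44 for activators and -0.62 for repressors. The order of the classes turned with lists of equal length, at -0.57 for activators and -0.37 for repressors, and within 2 kb of the start sites, at -2.38 for activators and -1.97 for repressors.

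Partners, regulators and targets of the family were counted from 5 textbook lists of 47 genes, also chosen with earlier results known. Of 20 E2F target genes, 8 had H3K27ac in both DMSO libraries and 7 of these were lost, among them the replication helicase genes MCM3, MCM4 and MCM5 and the ribonucleotide reductase genes RRM1 and RRM2. RRM2 had no peak with CARM1i against 3834 and 1904 bp with DMSO, and MCM3 had none with CARM1i against 1245 and 859 bp with DMSO. MCM4, MCM5 and RRM1 also had none with CARM1i: with DMSO MCM4 had 2087 and 878 bp, MCM5 1905 and 801 bp and RRM1 1856 and 1465 bp. Over all 5 lists 9 of the 19 genes with H3K27ac in both DMSO libraries were lost (background 24.1%). Without DMSO replicate 2 the number lost was 21, with the presence in DMSO replicate 1 alone then enough. It was 6 with peaks of at least 1000 bp, and MCM3, MCM4 and MCM5 each covered less than that in DMSO replicate 2. It was also 6 with peaks near another gene's end left out. All 20 target genes had H3K4me3 in all 4 libraries, each with less covered length in both CARM1i libraries than in both DMSO libraries (background 82.8%), at a median log2 ratio of -0.53.

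Of 11 cyclin, kinase and inhibitor genes that act on RB1 in G1, 1 of 5 that carried H3K27ac in each DMSO library was lost (background 24.1%): CDK4, which phosphorylates RB1, had no peak with CARM1i against 4963 and 3375 bp with DMSO. CDKN1A, a kinase inhibitor, lost H3K4me3 (none with CARM1i, 2949 and 2632 bp with DMSO) and H3K4me1, and CDKN2C lost H3K4me1. That is 1 of 11 genes for H3K4me3 (background 4.79%) and 2 of 8 for H3K4me1 (background 39.8%). In the list of MuvB and of DREAM, the complex that represses cell cycle genes with E2F4, 1 of 4 genes lost H3K27ac, near the background of 24.1%. This was LIN9, with none with CARM1i against 1918 and 5406 bp with DMSO. LIN54, the DNA-binding MuvB subunit, had more H3K27ac in both CARM1i libraries (4138 and 4104 bp) than in both DMSO libraries (2354 and 3821 bp). It was the 1 such gene of 35 with an H3K27ac peak in any library over the 5 lists (background 5.44%). H3K4me1 was lost at LIN9, LIN54 and RBBP4, 3 of the 5 genes of that list with it in both DMSO libraries, and at MGA, the 1 such gene among the 7 Polycomb partners of E2F6. It was also lost at CDT1, RRM2 and TK1, 3 of 5 such targets. Over all 5 lists 9 of 19 lost H3K4me1, beside a background of 39.8%. No H3K27ac was lost among the Polycomb partners (1 with the mark in both DMSO libraries) or the DP and pocket partners (1). TFDP2, a DP partner, had H3K4me3 of 5799 and 4659 bp with CARM1i against 4367 and 4277 bp with DMSO, higher without overlap. That is 1 of 46 genes with an H3K4me3 peak in any library over the 5 lists (background 0.563%).

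The genes most like E2F2, E2F8 and RBL1 were sought by the Euclidean distance of log2(covered bp + 500) over the 12 libraries. Nearest to E2F2 were SF3A2, STIP1 and ARHGEF3, at distances of 2.00, 2.06 and 2.32. Among the nearest to E2F8 were PRIMPOL at 0.34 and TTF2 at 0.43. Nearest to RBL1 were TAB1, GAA and MTG2, at 0.95, 1.09 and 1.13. ARHGEF3 shared the short H3K4me3 of E2F2 with CARM1i, at 1189 and 1121 bp against 5781 and 3813 bp with DMSO.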

How the data were processed

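Histone marks were mapped by ChIP-seq in 12 libraries. The tools named, per the submitters' processing notes, are MACS 1.4.2 and Bowtie 1.1.2, with hg38 as the build; the sources used here give no peak threshold, read filter or use of the inputs. The peak lists that the authors deposited hold positions without scores, read here as BED intervals and printed 1-based. Covered length is the sum of peak bases inside a window. Lost meant a peak in both DMSO and neither CARM1i library, gained the reverse, and lower or higher without overlap compared all libraries of each group. No test was made. The members and lists were chosen with earlier results of these data known. All members are named; lost or gained list genes are named alphabetically, up to 6 per list and mark, and list genes higher without overlap are named too. A few genes that these rules would name are not reported here. The genes most like a member, and settings within 2 kb of a start, are further descriptions, the second chosen after seeing the data. Gene ends and promoter windows came from RefSeq GRCh38.p14; the table used holds no exons. Alternatives were other windows, stricter peaks, equal list lengths and each library left out. The code (Python 3.11.15, numpy 2.4.6, pandas 2.3.3) was tested on simulated data.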

Additional observations from a re-analysis of the deposited data

How the results depend on the processing

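No paired analysis was possible because the results come from no test. The labels also do not say whether equal replicate numbers share a culture or day. E2F2 was lost for H3K27ac under every setting tried; E2F3 was not with peaks near another gene's end left out, nor E2F8 with peaks of at least 1000 bp. Leaving out single libraries gave 3 to 4 lost members for H3K27ac, 0 to 2 for H3K4me1 (E2F6 and E2F7 without DMSO replicate 2) and 9 to 21 lost pathway genes for H3K27ac. Members lower without overlap then numbered 4 to 7 for H3K27ac and 3 to 7 for H3K4me1, and members higher 0 to 1 for H3K27ac (E2F5 without CARM1i replicate 1, E2F1 without DMSO replicate 1).

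With 25 kb windows 5 members were lower for H3K4me1 and the repressor H3K4me3 log2 ratio was -0.41. With the gene body alone 1 member, E2F1, was higher for H3K27ac, and 6 were lower for H3K4me3. Without peaks near another gene's end the activator log2 ratios were -1.64 for H3K27ac and -1.49 for H3K4me3. E2F3 then had no peak of either mark left, so both ratios come from E2F1 and E2F2 alone. With lists of equal length the repressor H3K4me1 log2 ratio was -0.37, and the E2F4 H3K4me3 difference turned to 173 bp higher with CARM1i. Within 2 kb of the start sites, a setting added after seeing the data, 1 member was lower for H3K4me1 and the activator H3K4me1 log2 ratio was -2.38. Of 290 values of single genes, 12 changed sign: that of E2F4, and 11 of E2F1, E2F5 or RB1, where the groups overlap. Apart from E2F4, 268 values moved by less than 1 SD and 21 by more; the causes were not tested. Unknown read depth limits every absent peak.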

Other observations

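E2F letters were also counted over all genes with a known strand. Of the genes with H3K27ac at the 5′ end in both DMSO libraries, 33.3% were lost among the 517 with at least 1 E2F form in their promoter windows, and 27.5% among the 1285 without. H3K27ac was present there in both DMSO libraries at 16.0% of the 3240 genes with a form and 10.2% of the 12573 without. These shares are given as a description; the difference was not tested.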
